A study of Mus musculus with 24 samples.

Results

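The CCAAT/enhancer-binding proteins (C/EBPs) measured here were *Cebpb*, *Cebpd*, *Cebpa* and *Cebpg*, 4 of the 26995 gene symbols in the count tables. They were chosen by name: the symbol is the first part of the gene label of an entry, an entry being 1 RefSeq 3′UTR, and where a symbol has several entries the one with most total reads on average across the 24 libraries is used. Each of the 4 genes had 1 entry among the 91830. The cells were 3T3-L1, a mouse embryonic fibroblast line that turns into adipocytes when it is given a hormonal cocktail. Cells received DMSO, the solvent, or 0.5 µM ML-792, an inhibitor of the E1 enzyme that starts sumoylation, and 3 replicates (A, B and C) were taken at day −2, before induction, and at days 1, 3 and 7. The cocktail held dexamethasone, 3-isobutyl-1-methylxanthine (IBMX) and insulin, with fetal bovine serum, and from day 3 it gave way to a medium with insulin and serum. All 8 conditions were incubated with 100 µM 4-thiouridine for 45 min before harvest. Reads that carry at least 1 T-to-C conversion are taken to hold this label and to stand for RNA made in that time ("labelled reads"). Conversions of another origin are not told apart in these counts. All reads of an entry together stand for its mRNA level ("total reads"). All libraries come from 1 cell line, and the labels do not give how long each ML-792 culture had been treated.

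C/EBPs are basic leucine zipper (bZIP) transcription factors, which bind DNA as dimers with each other or with other bZIP proteins. In the textbook order of adipogenesis, cAMP and glucocorticoid signals first switch on *Cebpb* and *Cebpd*, and their products then activate *Cebpa* and *Pparg*, which maintain each other and turn on the genes of the fat cell. *Cebpg* encodes a member without a known activation domain that pairs with other C/EBP and ATF proteins. C/EBP proteins are also known substrates of SUMO, but the libraries measured RNA and not protein.

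On mm10 the *Cebpb* entry lies on chromosome 2 from 167689913 to 167690432 (plus strand) and is 520 bases long with 146 Ts. The *Cebpd* entry lies on chromosome 16 from 15888132 to 15889545 (plus strand) with 1414 bases and 380 Ts. On chromosome 7 the *Cebpa* entry runs from 35120499 to 35121928 (plus strand), 1430 bases with 369 Ts, and the *Cebpg* entry from 35046422 to 35050383 (minus strand), 3962 bases with 1290 Ts. *Cebpa* and *Cebpg* are neighbours that point away from each other: their starts lie 62.7 kb apart with only *Gm35611* annotated between them, which is not protein coding. The *Cebpd* entry shares 322 bases with an entry of *Spidr* on the other strand. *Spidr* had 100 to 583 reads per library and at most 18 labelled reads, while *Cebpd* had 1308 to 6373 reads. Whether the counting used strand is not given in the sources used here.

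The 250 bases before the RefSeq start of *Cebpa*, *Cebpb* and *Cebpg* (GRCm38.p6, 3 of the 4 genes matched) are shown because the C/EBP genes are known to be switched on in turn during differentiation, and a reader can compare their proximal promoters. Capitals mark letters of the motifs searched on both strands. The window of *Cebpb* was 81.6% GC, that of *Cebpg* 70.8% and that of *Cebpa* 66.4%.

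*Cebpb*, chr2:167688665-167688914, plus strand: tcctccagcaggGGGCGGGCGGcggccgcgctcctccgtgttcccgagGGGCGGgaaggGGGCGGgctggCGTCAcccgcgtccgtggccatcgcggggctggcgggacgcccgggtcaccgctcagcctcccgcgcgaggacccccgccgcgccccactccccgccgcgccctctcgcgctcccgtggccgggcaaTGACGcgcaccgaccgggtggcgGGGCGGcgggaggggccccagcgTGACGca

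*Cebpa*, chr7:35119043-35119292, plus strand: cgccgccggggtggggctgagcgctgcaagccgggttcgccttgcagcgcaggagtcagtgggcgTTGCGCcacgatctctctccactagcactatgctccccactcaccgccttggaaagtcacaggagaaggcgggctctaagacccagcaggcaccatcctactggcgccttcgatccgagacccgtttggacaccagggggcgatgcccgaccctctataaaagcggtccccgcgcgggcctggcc

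*Cebpg*, chr7:35056567-35056816, minus strand: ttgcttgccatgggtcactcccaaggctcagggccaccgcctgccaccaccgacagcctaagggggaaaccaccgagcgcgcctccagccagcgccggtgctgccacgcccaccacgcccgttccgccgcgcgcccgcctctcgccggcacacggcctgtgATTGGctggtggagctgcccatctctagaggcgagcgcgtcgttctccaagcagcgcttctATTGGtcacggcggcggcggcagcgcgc

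Counting back from the start site, the *Cebpb* window held TGACG, the core of the cAMP response element, at −53 and −7, and on the other strand at −180, where the printed strand shows the complementary letters. This motif occurred in 17.7% of the 32817 promoter windows of the same length. The same window held the GC box GGGCGG at −238, −234, −202, −191 and −30, the first pair overlapping, a motif found in 32.7% of all windows. The *Cebpa* window held TTGCGC, the core of a C/EBP site, at −185, found in 5.33% of windows. The *Cebpg* window held CCAAT on the other strand at −89 and −28, found in 33.8% of windows. The full palindromes TGACGTCA (1.55% of windows) and TTGCGCAA (0.165%) and the composite C/EBP-ATF site TGATGCAA (0.792%) were in none of these windows.

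Libraries held 13554718 to 27013352 total reads and 115709 to 820046 labelled reads. Labelled reads made up 2.68% to 3.68% of the day −2 libraries and 0.802% to 1.36% of the later ones. Counts are given below as normalised counts, the reads divided by the effective size of the library and multiplied by the mean effective size. Summed adipocyte markers, all 7 of them detected, went from 1955–3006 at day −2 to 381100–450600 at day 7 in DMSO, and summed pre-adipocyte markers from 396000–508700 to 25340–44890. Of 5 markers of other cells, *Ptprc* (leukocytes) and *Epcam* (epithelium) were at 0 in every library and *Myod1* (muscle) in all conditions but 1 (mean 0.297). *Pecam1* (endothelium) had means of 3.63 to 11.0 normalised counts, and *Alb* (liver) reached 10.7 ± 2.11 (SD, n = 3) under ML-792 at day 7 against 0.757 ± 0.655 in DMSO. Replicate B stood apart from A and C for some genes: it had the lowest *Cebpa* count in 8 of 8 conditions, the highest *Cebpb* count in 7 of 8 and the highest summed adipocyte markers in 6 of 8.

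Without the inhibitor, the C/EBP genes rose at different times. *Cebpb* and *Cebpd* rose by day 1, *Cebpa* rose at day 1 and again at day 3, and *Cebpg* rose at day 3. By day 7 *Cebpa* and *Cebpg* were far above day −2, and *Cebpb* and *Cebpd* were near their starting counts. In these mixed cultures, fewer cells of a type and less RNA per cell cannot be told apart.

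*Cebpb*, the factor that starts the cascade, had 1586, 2448 and 1451 normalised total counts in replicates A, B and C at day −2 and 3533, 5429 and 3312 at day 1. The groups did not overlap and the means stood 2.24-fold apart, a log2 change of 1.16 ± 0.27 (SE; edgeR quasi-likelihood test, adjusted p = 0.00505). Its counts were 2768, 5431 and 3686 at day 3 and 2138, 1978 and 2145 at day 7. Day 3 overlapped day 1 (log2 change −0.05, adjusted p = 0.922), and day 7 lay below day 3 in all replicates without passing the threshold of 0.01 (−0.93 ± 0.27, adjusted p = 0.0261). From lowest to highest the means ran day −2, day 7, day 3 and day 1, and neither the lower pair nor the upper pair of neighbours differed beyond its spread.

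*Cebpd*, the other early factor and a glucocorticoid-responsive gene, had 2427, 2855 and 2492 counts at day −2 and 4513, 5805 and 3897 at day 1 (1.83-fold, log2 0.87 ± 0.18, edgeR adjusted p = 0.00266). At day 3 it had 2288, 3220 and 2876 counts, below all day 1 replicates (log2 −0.76 ± 0.18, adjusted p = 0.00498), and at day 7 it had 2627, 2411 and 2666. *Cebpd* thus peaked at day 1 alone. Days −2, 3 and 7 overlapped each other, and day 7 differed from day −2 by −0.01 (adjusted p = 0.961).

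*Cebpa*, which sustains the adipocyte state, had 351.8, 230.7 and 318.8 counts at day −2, then 1526, 1284 and 1490 (day 1), 10470, 7502 and 12640 (day 3) and 8666, 5609 and 8999 (day 7). Day −2, day 1 and day 3 were clear of each other. The rise was 4.77-fold at day 1 (log2 2.25 ± 0.24, edgeR adjusted p = 9.43e-06) and a further 7.12-fold at day 3 (2.83 ± 0.25, adjusted p = 6.05e-07). Days 3 and 7 overlapped (−0.40, adjusted p = 0.279), and day 7 stood 25.8-fold above day −2 (4.69 ± 0.27, adjusted p = 3.47e-09).

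*Cebpg*, the dimer partner, had 2055, 2060 and 1689 counts at day −2 and 2506, 2673 and 2172 at day 1, groups that did not overlap but did not pass the test (log2 0.34 ± 0.16, edgeR adjusted p = 0.149). At day 3 it had 6166, 7424 and 5984 counts, 2.66-fold above day 1 (1.41 ± 0.16, adjusted p = 1.06e-05), and at day 7 it had 5868, 5016 and 5637. Day 7 lay just under day 3 (−0.25, adjusted p = 0.346) and 2.85-fold above day −2 (1.51 ± 0.17, adjusted p = 2.46e-06). Its step at day 3 was the same step in time as the second rise of its neighbour *Cebpa*.

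Counted over the 4 genes, 3 were called higher at day 1, when 5.75% of the 25126 entries tested were. At day 3 against day 1, 2 were called higher and 1 lower, beside 9.58% and 10.4% of entries. At day 7 against day 3 none was called, beside 5.67% of entries higher and 3.68% lower. At day 7 against day −2, 2 were higher, beside 16.3%. The study calls the replicates biological, but no source says that the cultures were raised separately, so p-values measure the spread between these libraries. With 2 replicates a group, the calls of *Cebpb* at day 1 (adjusted p = 0.0701 without A and 0.059 without C), *Cebpd* at day 1 (0.0879 and 0.0313) and *Cebpd* at day 3 (0.14 and 0.0309) were lost with their directions kept, while those of *Cebpa* and *Cebpg* held.

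**Figure D1:**
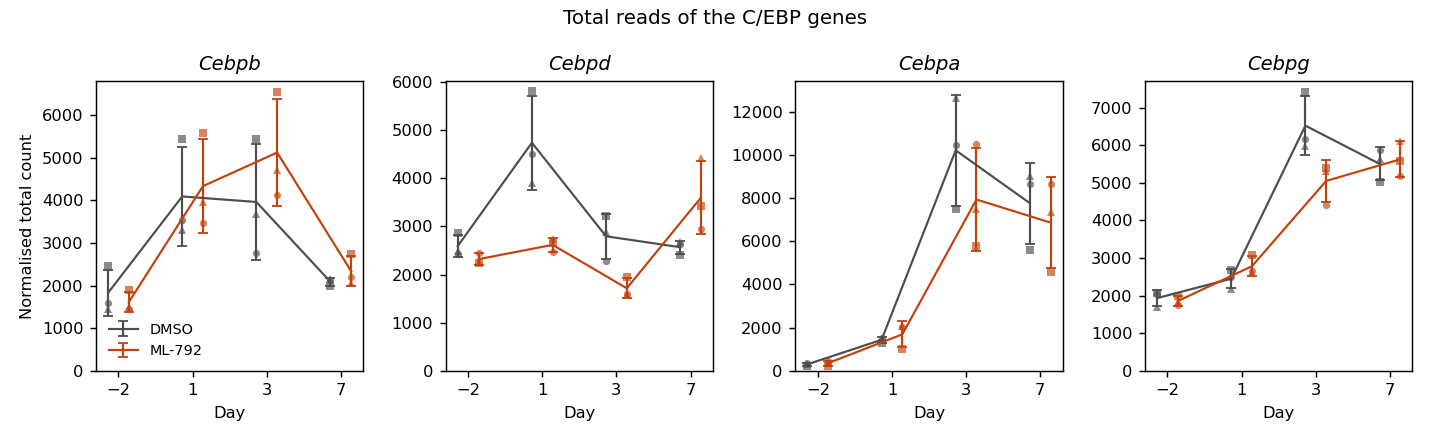
Normalised total counts (y axis, from 0, a scale of its own in each panel) of the 4 C/EBP genes by day (x axis) in DMSO (grey) and 0.5 µM ML-792 (orange); circles, squares and triangles are replicates A, B and C, lines join the means and bars are SD (n = 3). In DMSO *Cebpd* peaked at day 1 (mean 4738) and *Cebpa* and *Cebpg* at day 3 (10200 and 6525), and the *Cebpd* peak at day 1 is missing under ML-792 (2616).

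Labelled reads gave a different picture of the early factors. Newly made *Cebpa* RNA rose with its total RNA, but labelled *Cebpb* and *Cebpd* reads were highest before induction and were lower at day 7. This took place against a general drop: the median entry changed by −1.24 (log2) from day −2 to day 1 and by −1.52 from day −2 to day 7 when labelled reads were scaled by total reads. Values relative to that median are therefore given as well.

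*Cebpa* had 10.64, 1.789 and 10.66 normalised labelled counts at day −2, from only 13, 2 and 12 reads, and 38.62, 20.04 and 24.74 at day 1 (log2 1.83 ± 0.51, edgeR adjusted p = 0.00477). It reached 89.73, 71.87 and 145.8 at day 3 (1.88 ± 0.45 over day 1, adjusted p = 0.0053) and 81.25, 75.1 and 105.1 at day 7. Neighbouring days overlapped only between days 3 and 7. Labelled *Cebpa* at day 7 was 11.3-fold above day −2 (3.47 ± 0.51, adjusted p = 7.18e-07), or 4.99 above the median entry. The day 1 call was lost without replicate A (adjusted p = 0.0715) or C (0.0182), and the day 3 call without A (0.0296) or C (0.227).

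*Cebpb* had 248.7, 260.2 and 219.4 labelled counts at day −2, then 99.31, 196.8 and 114.6 (day 1), 55.81, 95.05 and 62.49 (day 3) and 68.83, 84.48 and 74.24 (day 7). Day 1 was below day −2 in every replicate but did not pass the threshold (log2 −0.83 ± 0.35, edgeR adjusted p = 0.0597), and day 7 did (−1.68 ± 0.36, adjusted p = 0.000277, or 0.0176 when replicate A was left out). So *Cebpb* had 2.24-fold more total reads at day 1 while its labelled counts were 0.564 of those at day −2. Set against the median entry its labelled change was 0.41 at day 1 and −0.16 at day 7, and scaled by the labelled reads themselves it was 0.32 (adjusted p = 0.591) and −0.37 (adjusted p = 0.475), so both the direction at day 1 and the call at day 7 depended on the scaling.

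*Cebpd* behaved in the same way: its labelled counts were 370.6, 416.7 and 402.3 at day −2, then 190.3, 260.5 and 160.8 (day 1), 104, 134.5 and 108.8 (day 3) and 158, 156.4 and 155.3 (day 7). The log2 change was −0.96 ± 0.31 at day 1 (edgeR adjusted p = 0.0159) and −1.34 ± 0.32 at day 7 (adjusted p = 0.000807, which became 0.0234 when replicate A was left out and 0.0227 when C was). Relative to the median entry these were 0.28 and 0.18, and scaled by labelled reads 0.19 (adjusted p = 0.755) and −0.05 (adjusted p = 0.937), where the day 7 call was lost. The 3 day 7 replicates of *Cebpd* were close, with 156.6 ± 1.36 labelled counts (SD, n = 3).

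*Cebpg* had 127.6, 118 and 103 labelled counts at day −2, then 31.26, 88.36 and 58.56 (day 1), 72.22, 45.21 and 92.58 (day 3) and 76.73, 49.02 and 62.82 (day 7). None of its changes was called: day 1 against −2 was −0.97 ± 0.40 (log2, edgeR adjusted p = 0.0524), day 3 against 1 was 0.24 (adjusted p = 0.807) and day 7 against −2 was −0.89 ± 0.40 (adjusted p = 0.06), the last turning to 0.41 when scaled by labelled reads. Relative to the median entry the changes were 0.27 (day 1 against −2), 0.59 (day 3 against 1) and 0.63 (day 7 against −2). The 2.66-fold step of total *Cebpg* at day 3 had no counterpart past the threshold in labelled reads, which does not show that there was none.

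Of the 4 genes, 1 was called higher in labelled reads at day 1, when 0.641% of 9207 entries were. One gene was higher at day 3 against day 1 (1.49% of entries), none was called at day 7 against day 3 (0.163% higher and 0.076% lower), and 1 was higher and 2 lower at day 7 against day −2 (1.93% and 31.6%). The share of entries called lower is thus large, and the 2 lower genes, *Cebpb* and *Cebpd*, lay close to the median entry (−0.16 and 0.18 from it). Without replicate B, *Cebpb* (−1.13, edgeR adjusted p = 0.00546), *Cebpd* (−1.14, 0.00131) and *Cebpg* (−1.35, 0.00608) were also called lower at day 1.

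**Figure D2:**
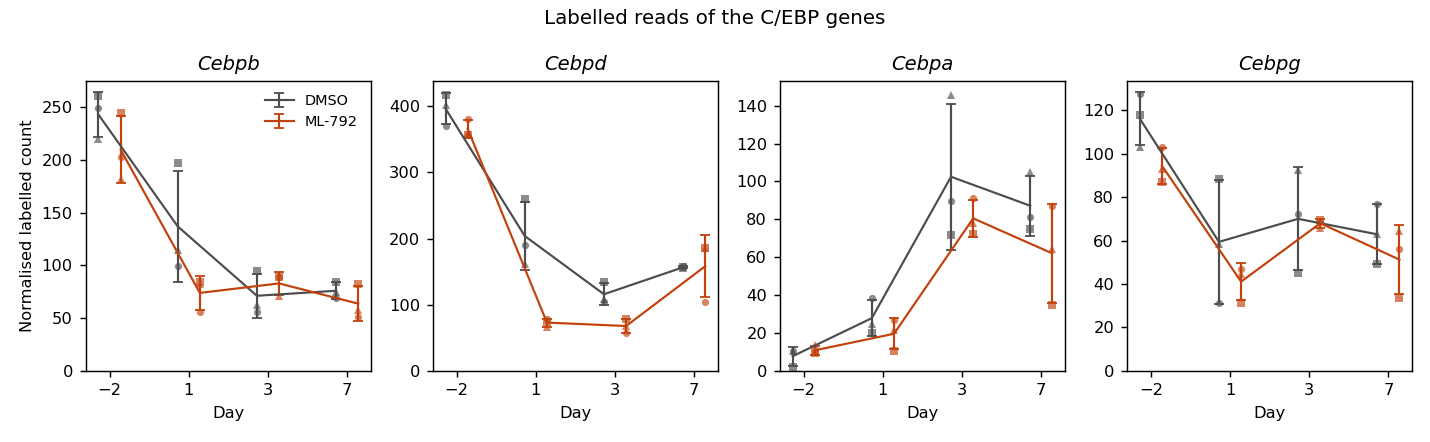
Normalised labelled counts (y axis, from 0, a scale of its own in each panel) of the C/EBP genes by day (x axis) in DMSO (grey) and ML-792 (orange), with symbols, lines and bars as for total reads (SD, n = 3). *Cebpb*, *Cebpd* and *Cebpg* start highest at day −2 and *Cebpa* lowest, and at day 1 *Cebpd* under ML-792 (mean 72.9) lies clear of DMSO (203.9).

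The labelled share of a gene, its labelled reads as a percent of its total reads, does not depend on the size of the library. Within 1 library it is high where the RNA is young. Between days it also carries the labelled percent of the whole library, which was larger at day −2. *Cebpd* and *Cebpb* had high shares. In DMSO *Cebpd* had 15.3% ± 0.777 (SD, n = 3) at day −2, then 4.28% ± 0.188, 4.17% ± 0.380 and 6.11% ± 0.341 on days 1, 3 and 7. *Cebpb* had 13.8% ± 2.77, 3.30% ± 0.430, 1.82% ± 0.172 and 3.65% ± 0.552 on the same days. At day −2 these placed *Cebpd* at percentile 98.1 and *Cebpb* at 97.5 of the 6627 genes with at least 1000 reads in the 3 libraries, whose median share was 2.28%.

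*Cebpd* stayed at percentile 96.2, 97.3 and 98.3 at days 1, 3 and 7, and *Cebpb* at 94.0, 88.2 and 96.5. *Cebpg* had 6.01% ± 0.250 at day −2 (percentile 87.6), then 2.42% ± 1.06, 1.11% ± 0.472 and 1.13% ± 0.166 (68.2). *Cebpa* had 2.38% ± 1.40 (percentile 56.0), 1.92% ± 0.533, 0.990% ± 0.151 and 1.15% ± 0.202 (67.7). The early factors thus held more labelled RNA for their amount than the late one on every day, though the number of Ts in the part of the entry that is read also bears on a share and was not tested. The low mean of *Cebpa* at day −2 rests on replicate B, with 2 labelled of 258 reads (0.775%), against 3.02% and 3.34% in A and C.

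In DMSO the share in the 9 later libraries differed from that in the 3 of day −2 by −10.9 percentage points for *Cebpb*, −10.5 for *Cebpd* and −4.46 for *Cebpg* (two-sided exact permutation tests, each p = 0.00909, the smallest this design can give, adjusted p = 0.0242 over 8 tests). *Cebpa* differed by −1.03 points, which did not pass (exact p = 0.127, adjusted p = 0.146). The tests took the 9 later libraries as interchangeable, though they came from days 1, 3 and 7, whose shares differed, and left out the replicate letters. Labelled reads of whole libraries were also a larger percent at day −2, and once each share was divided by that of its library no gene passed: the log2 difference was −0.77 for *Cebpb* (exact p = 0.0273, adjusted p = 0.0546), −0.17 for *Cebpd* (exact p = 0.482), −0.61 for *Cebpg* (exact p = 0.127, adjusted p = 0.146) and 0.88 for *Cebpa* (exact p = 0.0818, adjusted p = 0.131). ML-792 against DMSO, averaged over the days, gave −0.19 for *Cebpb* (exact p = 0.0895), −0.09 for *Cebpd* (exact p = 0.355), 0.11 for *Cebpa* (exact p = 0.637) and −0.003 for *Cebpg* (exact p = 0.986), of which none passed over the 4 genes (adjusted p = 0.358 or more).

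**Figure D3:**
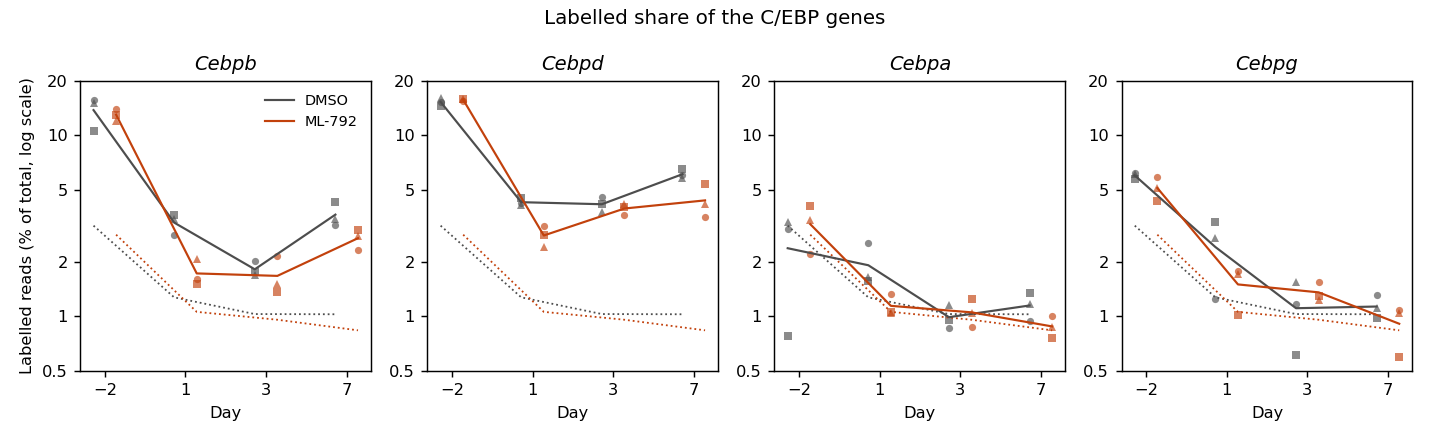
Labelled reads as a percent of total reads (y axis, log scale) for each C/EBP gene by day (x axis) in DMSO (grey) and ML-792 (orange); points are replicates A (circle), B (square) and C (triangle), solid lines join their means and dotted lines the mean labelled percent of whole libraries. *Cebpd* and *Cebpb* lie above the dotted lines on every day, and *Cebpa* stays nearer to them.

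Under ML-792 *Cebpd* was the 1 gene of the 4 called against DMSO without a replicate block. It was lower than in DMSO at days 1 and 3 and higher at day 7, and at day 1 its labelled reads were lower as well. *Cebpb*, *Cebpa* and *Cebpg* were not called on any day in either kind of read in the fit used here, which has no replicate block. With a block all 3 were called in total reads at day 3 (*Cebpa* −0.37, edgeR adjusted p = 0.0612; *Cebpb* 0.39, 0.0572; *Cebpg* −0.37, 0.0288).

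At day −2 *Cebpd* had 2456, 2246 and 2255 normalised total counts under ML-792 against 2427, 2855 and 2492 in DMSO (log2 −0.16, edgeR adjusted p = 1). At day 1 the counts were 2460, 2656 and 2733 under ML-792, all below the lowest DMSO count of 3897 (0.552-fold, log2 −0.86 ± 0.17, adjusted p = 0.00207). At day 3 they were 1595, 1953 and 1594, again below every DMSO replicate (0.613-fold, −0.71 ± 0.17, adjusted p = 0.0066). At day 7 the order was turned, with 2937, 3426 and 4429 under ML-792, all above the highest DMSO count of 2666 (1.40-fold, 0.49 ± 0.17, adjusted p = 0.088). The day 1 call was lost without replicate A (adjusted p = 0.121), the day 3 call without C (0.15), and the day 7 call, close to the threshold of 0.1, without A (0.24) or C (0.619), all with the direction kept. In the 9 other settings tried, which include a threshold of 0.05, the day 7 call held in 4.

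Labelled *Cebpd* at day 1 was 78.09, 74.44 and 66.2 counts under ML-792 against 190.3, 260.5 and 160.8 in DMSO, which is 0.358-fold (log2 −1.48 ± 0.30, edgeR adjusted p = 0.00363). The median entry was −0.302 in this contrast, so *Cebpd* was at −1.18 relative to it, and scaled by labelled reads it was called too (−1.19, adjusted p = 0.0315). It was not called without replicate A (−1.58, adjusted p = 0.128) or C (−1.56, adjusted p = 0.161). At day 3 labelled *Cebpd* was 57.61, 78.52 and 67.01 against 104, 134.5 and 108.8, groups that did not overlap but did not pass (−0.77 ± 0.31, adjusted p = 0.314). At day 7 it was 103.7, 185.3 and 185.7 against 158, 156.4 and 155.3 (0.01, adjusted p = 0.996). Scaled by total reads, labelled *Cebpd* thus did not show the difference of the total counts. The median entry was −0.374 in this contrast, so labelled *Cebpd* was 0.39 above it, beside 0.48 for total *Cebpd*. The difference from the median was not tested.

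Over the 4 genes, none was called in total reads at day −2, when 0% of the 26338 entries were called in either direction (347 entries had an unadjusted p under 0.05). One gene was lower at day 1 (3.57% of entries), 1 lower at day 3 (6.05%) and 1 higher at day 7 (5.1%), each time *Cebpd*. In labelled reads 0% of the 10170 entries were called at day −2 (67 with an unadjusted p under 0.05), 1 gene was lower at day 1 (0.777% of entries), and none was called at day 3 (0.374% higher and 0.58% lower) or day 7 (0.0492% higher and 0.855% lower).

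For *Cebpb*, which in DMSO rose by day 1 as *Cebpd* did, total counts under ML-792 were 1442, 1891 and 1502 at day −2, then 3470, 5574 and 3954 (day 1), 4116, 6537 and 4711 (day 3) and 2205, 2729 and 2068 (day 7). All days overlapped DMSO, and the log2 difference was at most 0.37 (day 3, edgeR adjusted p = 0.473; called without replicate B, 0.45, adjusted p = 0.0307). Its labelled counts at day 1, 55.63, 83.75 and 82.04, lay below the DMSO range of 99.31 to 196.8 without passing (−0.89 ± 0.33, adjusted p = 0.235).

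*Cebpa* under ML-792 had 445.5, 225.5 and 391.5 total counts at day −2, then 2006, 989.9 and 2066 (day 1), 10490, 5798 and 7492 (day 3) and 8663, 4568 and 7347 (day 7), and overlapped DMSO on each day (day 3 log2 −0.36, edgeR adjusted p = 0.586). *Cebpg* had 1755, 1991 and 1822, then 2648, 3087 and 2618, then 4421, 5408 and 5327, and at day 7 5172, 5585 and 6127 counts. Its day 3 counts lay below all DMSO replicates (0.774-fold, −0.37 ± 0.14, adjusted p = 0.113), just outside the threshold. A p above the threshold does not show that these genes were alike in both treatments.

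The course over the days was compared between treatments by an F-test of the interaction terms. *Cebpd* was called in total reads (edgeR F = 13.1, adjusted p = 0.00155), 1 of 4 genes where 9.75% of entries were called, and this was lost without replicate C (adjusted p = 0.125). *Cebpa* (adjusted p = 0.787), *Cebpb* (0.84) and *Cebpg* (0.333) were not called, though *Cebpa* (0.0843) and *Cebpg* (0.0906) were with a replicate block. In labelled reads none of the 4 was called, beside 0.246% of entries, with *Cebpd* at an adjusted p of 0.282.

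Cell-type markers moved with treatment on the days on which *Cebpd* did, and their part in the result was not tested. At day 1, 2 of the 6 pre-adipocyte markers tested were higher under ML-792, with sums of 192800–299800 against 239800–247400, and 2 of 7 adipocyte markers (7029–8376 against 5191–6647). At day 3, 5 of 6 pre-adipocyte markers were higher (53940–69380 against 27060–34540) and 2 of 7 adipocyte markers lower while their sum, carried by the most abundant ones, was 254900–290700 against 174100–267600. At day 7, 4 pre-adipocyte markers were higher and 1 lower (50190–65690 against 25340–44890), and 3 of 7 adipocyte markers were higher (636800–661900 against 381100–450600). Of all entries, 3.09% were called higher at day 1, and 6.93% higher and 6.05% lower at day 3. At day 7 these shares were 5.1% higher and 4.7% lower.

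**Figure D4:**
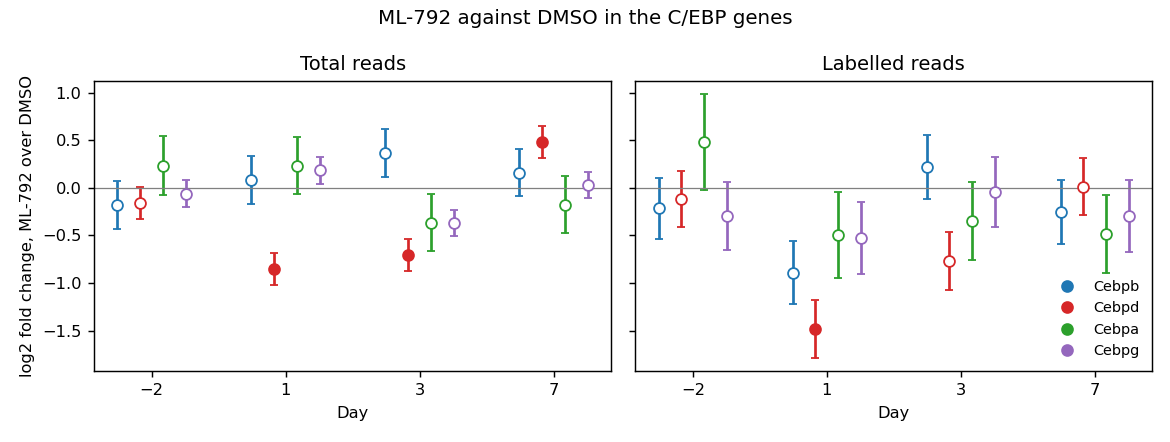
Log2 fold change of ML-792 over DMSO (y axis) for the 4 C/EBP genes (colours) by day (x axis) in total reads (left) and labelled reads (right), with SE bars from the edgeR fit; filled points passed an adjusted p of 0.1. Only *Cebpd* is filled, at days 1, 3 and 7 in total reads (−0.86, −0.71 and 0.49) and at day 1 in labelled reads (−1.48).

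Taken by itself, the ML-792 course kept the called steps of the DMSO one in total reads, apart from *Cebpd* at day 1. *Cebpg* at day 1 and *Cebpb* at day 7 against day 3 were called here and not in DMSO. Total *Cebpd* did not pass at day 1 (log2 0.17, edgeR adjusted p = 0.437), fell at day 3 (−0.61, adjusted p = 0.00859) and rose at day 7 against day 3 (1.07, adjusted p = 0.000368), so that it ended above day −2 (0.63, adjusted p = 0.00433). *Cebpd* in these cells was highest at day 7 and in DMSO cells at day 1. *Cebpa* rose by 2.25 at day 1 and 2.23 at day 3, *Cebpb* rose by 1.43 at day 1 and fell by 1.13 at day 7 against day 3, and *Cebpg* rose by 0.59 by day 1 and by 0.86 more by day 3. The *Cebpd* steps were not called without replicate A (adjusted p = 0.078, 0.0179 and 0.0173 for day 3 against 1, 7 against 3 and 7 against −2) or without C (0.0856, 0.0326 and 0.107).

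In total reads 3 genes were called higher at day 1 (8.79% of 24984 entries), 2 higher and 1 lower at day 3 (11.6% and 10.9%), 1 higher and 1 lower at day 7 against day 3 (6.65% and 5.15%), and 3 higher at day 7 against day −2 (17.5%). In labelled reads *Cebpd* fell by 2.33 (log2) at day 1 (edgeR adjusted p = 1.31e-07), when the median entry was −1.40. *Cebpb* (−1.5) and *Cebpg* (−1.20) were lower too, 3 of 4 genes where 33.2% of 7646 entries were. The labelled *Cebpa* rise called in DMSO at day 1 did not pass here (0.85 ± 0.45, edgeR adjusted p = 0.105), with overlapping groups. One gene, *Cebpa*, was higher at day 3 (2% of entries), none was called at day 7 against day 3 (0.222% higher and 0.34% lower), and against day −2 *Cebpa* was higher (2.24%) and *Cebpb* and *Cebpd* lower (47.1%) at day 7. With 2 replicates a group fewer of these steps passed, in total reads 2 of 11 without replicate A and 2 of 11 without C.

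The lower labelled calls of the ML-792 course depended on the scaling. The median entry was −1.80 at day 7 against day −2, below *Cebpb* (−1.72) and *Cebpd* (−1.21). Scaled by labelled reads, 2 of the 7 labelled calls held, those of *Cebpa* at day 3 and at day 7 against day −2. *Cebpb* was then −0.20 at day 1 (edgeR adjusted p = 0.711) and −0.19 at day 7 (adjusted p = 0.681). *Cebpd* was −1.01 at day 1 (adjusted p = 0.0104) and turned to 0.32 at day 7 (adjusted p = 0.408), and *Cebpg* turned to 0.11 at day 1 (adjusted p = 0.861). Without replicate A, *Cebpb* (adjusted p = 0.0172) and *Cebpg* (0.0418) at day 1, *Cebpa* at day 3 (0.0302) and *Cebpd* at day 7 (0.0373) were not called. *Cebpg* at day 1 was not called without B (0.0184) or C (0.0337) either, nor *Cebpa* at day 3 without C (0.0328).

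Across the 24 libraries the log2 total counts of *Cebpa* and *Cebpg* ran together (Pearson r = 0.933), those of *Cebpb* less so with *Cebpa* (0.408) and *Cebpg* (0.372), and *Cebpd* with none of them (−0.065 to 0.081). These describe 24 libraries that share days, treatment and replicate letters. Of 13263 genes, those most like *Cebpa* were *Pim3* (r = 0.982), *Bcl2l13* (0.98) and *Atad3a* (0.979), and those most like *Cebpg* were *Acsl1* (0.981), *Scp2* (0.977) and *Pex11a* (0.976). The pattern of *Cebpb* was nearest to that of *Nop56* (0.95), *Hnrnpab* (0.945) and *Tex30* (0.942). *Cebpd* had looser matches, led by *Cyp1b1* (0.839), *Trim68* (0.813) and *Itfg1* (0.799).

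Proteins that dimerise with C/EBPs or compete for their sites are listed as bZIP partners: *Ddit3* (CHOP, a stress-induced inhibitor of C/EBP), *Atf3*, *Atf4* and *Atf5* (stress-linked ATF factors), *Nfil3* (a repressor) and *Cebpe*, the granulocyte C/EBP. *Cebpe* had no read in any library. In DMSO, day 7 against day −2, 1 of the 5 tested was called higher and none lower (list median −0.31, median of all entries −0.0561; 17.9% of entries were called lower). That gene was *Nfil3* (0.93, edgeR adjusted p = 0.00253; 0.0195 without replicate A and 0.0169 without C), while *Atf3* was at 0.25, *Atf4* at −0.49, *Atf5* at −0.31 and *Ddit3* at −0.37.

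Part of this list was lower under ML-792 late in the course. *Ddit3* at day 7 had 1431, 1095 and 1272 total counts under ML-792 against 2903, 3393 and 3938 in DMSO (log2 −1.43, edgeR adjusted p = 2.25e-06), and *Atf3* 90.55, 48.89 and 98.34 against 276.5, 247.2 and 478.6 (−2.07, adjusted p = 0.000498). Both were clear of DMSO in every replicate. *Atf5* was lower by less (−0.73, adjusted p = 0.0534; 0.318 without replicate A and 0.308 without C), and *Atf4* (−0.38, adjusted p = 0.215) and *Nfil3* (−0.15) were not called. So 3 of 5 were lower at day 7 (list median −0.73, all entries 0.00104; 4.7% of entries), and *Ddit3*, *Atf3* and *Atf5* were lower at day 3 too (−1.0, −1.81 and −0.94; for *Atf5* adjusted p = 0.00704, and 0.138 without A and 0.103 without C). The interaction test called *Ddit3* (adjusted p = 0.000572; 0.12 without C) and *Atf3* (0.0207; 0.248 without A and 0.311 without C).

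In labelled reads at day 7, *Ddit3* was lower (log2 −1.54, edgeR adjusted p = 0.0253; not called without A, without C or when scaled by labelled reads, adjusted p = 0.111), and so was *Atf5* (−1.87, adjusted p = 0.0918; not called without any 1 replicate). *Atf3* had 0, 0 and 1 labelled reads under ML-792 and 13, 13 and 18 in DMSO (adjusted p = 0.00515; 0.189 without A), too few for a fold change. *Cebpd* on the same day had near equal labelled counts in both treatments when scaled by total reads, which put it 0.39 above the median entry. *Pparg*, the target and partner of *Cebpa*, had 10300, 1743 and 10930 total counts in DMSO and 12070, 6275 and 14260 under ML-792 at day 7 (total 0.50, adjusted p = 0.639; labelled 0.33, adjusted p = 0.861), with replicate B lowest in both, as for *Cebpa*.

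**Figure D5:**
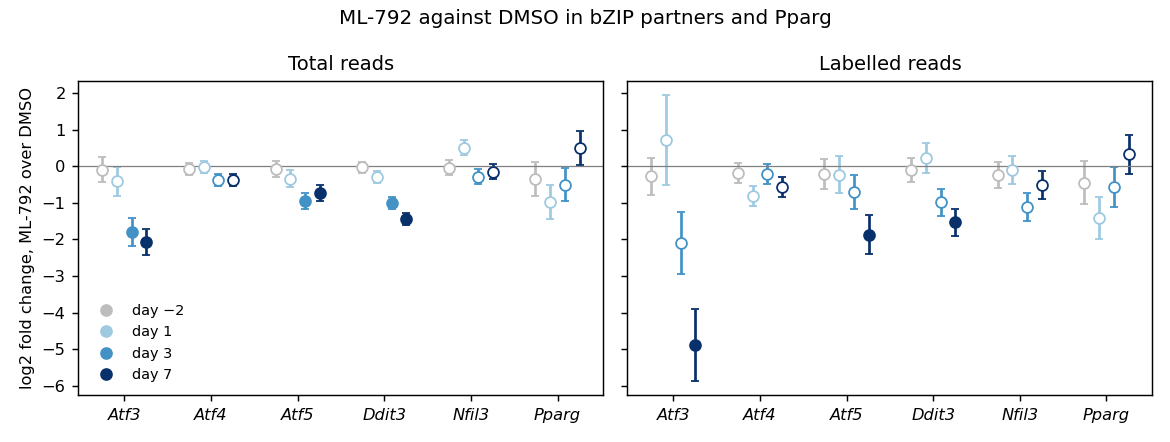
Log2 fold change of ML-792 over DMSO (y axis) for 5 bZIP partners and *Pparg* (x axis) at 4 days (colours) in total reads (left) and labelled reads (right), with SE bars; filled points passed an adjusted p of 0.1. *Ddit3*, *Atf3* and *Atf5* are filled below 0 at days 3 and 7 in total reads (day 7 −1.43, −2.07 and −0.73); the labelled *Atf3* value at day 7 rests on 1 read under ML-792.

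Most genes placed downstream of the C/EBPs were higher at day 7 than at day −2 in DMSO, where 16.3% of all entries were. Their steps in time were in part those of the C/EBP genes, and whether any of these drove them was not tested. Of 13 adipocyte targets, 12 were called higher at day 3 against day 1 (median 5.65), beside 9.58% of entries. *Cebpa* and *Cebpg* were called higher then too. At day 1, 4 were called higher (median 0.82), as *Cebpa*, *Cebpb* and *Cebpd* were, beside 5.75% of entries. At day 7 against day 3, 7 were higher (median 1.74), beside 5.67%, when no C/EBP gene was called. Over the whole course all 13 were higher (median 8.02), from *Insr*, the insulin receptor (1.2, edgeR adjusted p = 0.00034; 0.0249 without replicate A), to *Pck1*, the enzyme of glyceroneogenesis, with 1 read in the day −2 libraries together and 534 to 880 a library at day 7. Of 6 acute phase targets tested (7 listed), 5 were higher (median 5.01, or 4.42 with *Orm1* set to a floor of 3 counts), from *Cp*, ceruloplasmin (0.82; not called without A or C), to *Hp*, haptoglobin (8.72, adjusted p = 1.65e-11). Of 7 downstream factors 5 were higher (median 1.73), among them *Pparg* (3.73, adjusted p = 1.31e-05), *Rxra* (1.38) and *Klf15*, which went from 1 to 2 reads a library to 790 to 1043.

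Among genes that act on the C/EBPs, 9 of 18 were called lower at day 7 than at day −2 and 2 higher, beside 17.9% and 16.3% of all entries. The lists use 1 entry per gene. In a fit with 1 entry per gene, 5246 of 12792 were called in either direction, against 8599 of 25126 entries. Of 9 inhibitors, 6 were lower (median −1.30), led by *Runx1t1*, which blocks C/EBP binding (−4.14, edgeR adjusted p = 7.76e-09), and 1 was higher, *Trib3*, a pseudokinase that holds back C/EBP and AKT (1.42, adjusted p = 1.84e-05). Of 9 upstream regulators 3 were lower, led by *Egr2* (Krox20, −3.00, adjusted p = 1.47e-07), and 1 was higher, *Stat5a* (2.10, adjusted p = 1.81e-07), with a median of −0.66.

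Against DMSO at day 7, the adipocyte, acute phase and inhibitor lists held calls in both directions, beside 5.1% of all entries higher and 4.7% lower, while *Cebpa*, *Cebpb* and *Cebpg* were not called. Of the adipocyte targets 4 were higher and 3 lower (median 0.01), from *Lep*, leptin (3.82, edgeR adjusted p = 4.19e-07), to *Scd1*, the stearoyl-CoA desaturase (−1.67, adjusted p = 1.92e-05; labelled −1.84, adjusted p = 0.000703). Of the acute phase targets 2 were higher and 1 lower (median 0.63), from *Saa3* (2.05, adjusted p = 0.000853; 0.108 without replicate C) to *Lcn2* (−0.54, adjusted p = 0.0819; not called without A or C). One of 7 downstream factors was higher, *Srebf1* (0.83, adjusted p = 0.00537; 0.175 without A).

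Among the inhibitors *Gata3* was higher (2.03, edgeR adjusted p = 0.000691) and *Trib3* (−2.98, adjusted p = 2.36e-09; labelled −2.92, adjusted p = 0.000598) and *Ddit3*, which is on both lists, lower. *Klf4*, which switches on *Cebpb*, was the 1 upstream gene called, and lower (−0.73, adjusted p = 0.0618; not called without A or C). *Egr2* was called lower in labelled reads only (−1.38, adjusted p = 0.0845; not called without A, without B or when scaled by labelled reads).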

How the data were processed

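RNA of 24 cultures was sequenced as 3′-end libraries (QuantSeq) after thiol alkylation (SLAM-seq), which turns incorporated 4-thiouridine into T-to-C conversions. The authors aligned and counted reads with SlamDunk against mm10 and RefSeq 3′UTRs, and deposited raw counts per entry, of all reads and of reads with at least 1 conversion. Each table holds 6 more library columns, which match no sample here and were not used. Counts were tested with edgeR 4.0.16 (R 4.3.3; quasi-likelihood test, filterByExpr with minimum counts of 10 and 15, TMM, prior count 2), labelled reads being scaled by the total-read library sizes, with Benjamini-Hochberg adjustment over all entries tested. Calls between days needed an adjusted p under 0.01, and calls between treatments or of the interaction one under 0.1. Days were compared within 1 treatment and treatments within each day. Shares were compared by exact permutation (SciPy 1.17.1), with a threshold of 0.05 on the adjusted p. DESeq2 1.42.0, another filter, thresholds and scaling, a replicate block and leaving out each replicate were tried. The code was tested on simulated data. Total and labelled reads per library are given in the report. The members and gene lists were chosen with earlier results of these data known. The text covers the 4 C/EBP genes in each kind of comparison, without printing every uncalled value. It also names the 3 genes most like each, the bZIP partners and *Pparg*. From each list it gives the called gene with the highest and the lowest change at day 7.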

Additional observations from a re-analysis of the deposited data

Results flagged for a closer look

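The course of total *Cebpd* over the 4 days differed between DMSO and ML-792 by the F-test of the interaction terms (edgeR quasi-likelihood, adjusted p = 0.00155), since it was lower under ML-792 at days 1 and 3 (log2 −0.86 and −0.71) and higher at day 7 (0.49). Without replicate C the adjusted p was 0.125. The day 7 difference by itself was called in 4 of 9 other settings.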

How the results depend on the processing

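The C/EBP results are counts of calls and log2 changes, and the cause of each shift below was not tested. Total reads gave 8 calls between DMSO days (5 to 8 when a replicate was left out) and labelled reads 5 (1 to 8; 3 when scaled by labelled reads). ML-792 against DMSO gave 3 calls in total reads (1 to 4) and 1 in labelled reads (0 to 1; 2 by DESeq2). The interaction gave 1 in total reads (0 to 2) and 0 in labelled reads (1 by DESeq2). The ML-792 course gave 11 in total reads (2 to 12) and 7 in labelled reads (3 to 6; 4 when scaled by labelled reads, of which 2 were among the 7). Of the 8 share tests in DMSO 3 passed an adjusted p of 0.05, and 0 when any replicate was left out, since the smallest p is then 0.0714. The same 3 passed with a background share taken off (exact permutation test, adjusted p = 0.0242 each). That background was percentile 1 of the shares of genes with at least 1000 reads in the library.

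Libraries of the same replicate letter tended to deviate together in total reads: 68 of 84 same-letter pairs correlated over 0.1 (mean 0.194, lowest −0.176), against a mean of −0.095 for different letters. In labelled reads 23 of 84 did (mean 0.073, lowest −0.031, different letters −0.036). As not every pair did and no source says what the letters share, they were not taken as pairs. A block does not need every pair to do so, and more changes between treatments were called with it. With a replicate block, ML-792 against DMSO gave 6 calls in total reads (the 3 of *Cebpd* with *Cebpa*, *Cebpb* and *Cebpg* at day 3), the interaction 3 in total reads (*Cebpd*, *Cebpa* and *Cebpg*) and 1 in labelled reads (*Cebpd*), and labelled *Cebpd* at day 7 was −0.004.

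With DESeq2 total *Cebpd* at day 7 against −2 in DMSO was 0.02. Scaling by labelled reads turned these labelled changes: in DMSO at day 1 *Cebpb* 0.323, *Cebpd* 0.186 and *Cebpg* 0.186, at day 7 against 3 *Cebpb* −0.046, and at day 7 against −2 *Cebpg* 0.412; for ML-792 against DMSO *Cebpd* 0.005 at day −2, *Cebpg* 0.019 at day 3, and *Cebpb* 0.106 and *Cebpg* 0.058 at day 7; in the ML-792 course *Cebpg* 0.108 at day 1, and *Cebpd* 0.324 and *Cebpg* 0.633 at day 7 against −2.

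Leaving out 1 replicate turned uncalled changes, which ranged in DMSO total reads from −0.128 to 0.061 for *Cebpb* (day 3 against 1) and for *Cebpd* from −0.264 to 0.036 (day 7 against 3) and −0.075 to 0.106 (day 7 against −2). In DMSO labelled reads *Cebpg* ranged from −0.091 to 0.868 (day 3 against 1) and −0.301 to 0.096 (day 7 against 3). For ML-792 against DMSO in total reads *Cebpg* ranged from −0.135 to 0.025 (day −2) and −0.026 to 0.137 (day 7), and *Cebpb* from −0.003 to 0.262 (day 7). In labelled reads *Cebpg* ranged from −0.94 to 0.026 (day 1) and −0.294 to 0.233 (day 3), *Cebpa* from −0.535 to 0.018 (day 3) and *Cebpd* from −0.123 to 0.251 (day 7). In the labelled ML-792 course from day 1 to 3 *Cebpb* ranged from −0.058 to 0.352 and *Cebpd* from −0.211 to 0.05. The ML-792 difference in log2 share ranged from −0.0618 to 0.208 for *Cebpa* and −0.208 to 0.152 for *Cebpg*. Of all member values recomputed, 899 kept direction and call, 31 gained the call, 64 lost it and 34 turned. Summing entries per gene was not run, as each gene has 1 entry. Few labelled reads limit *Cebpa* at day −2 most.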
